A study of Mus musculus with 2 samples.

Results

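Genes of the primitive endoderm and of the basement membrane were compared between 2 libraries of mouse morulae. The set holds 10 genes chosen by symbol, namely Gata6, Sox17, Pdgfra, Sparc, Col4a1, Col4a2, Lama1, Lamb1, Lamc1 and Serpinh1. The table of 12836 genes has rows for 8 of them, and Sox17 and Lama1 are not analysed here. The embryos were of the ICR strain. In the dsNat10 group they had received double-stranded RNA against Nat10, an RNA acetyltransferase, and in the control group, dsGFP, double-stranded RNA against GFP, which mice lack. The stage of injection, and whether each library was made from the 50 morulae that the design text names, were not given in the sources used here. Each group had 1 library, so differences were described and not tested. The libraries held 28303119 (dsNat10) and 29139232 (dsGFP) estimated reads, and the targeted gene Nat10 had 37 reads in dsNat10 against 886 in dsGFP.

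The primitive endoderm is the sheet of cells that separates from the epiblast inside the blastocyst, and it later lines the yolk sac. FGF signals through ERK kinases favour this fate, and Gata6 is an early transcription factor of it. Its cells are known for secreting basement membrane, a mat of laminin and type IV collagen on which the epiblast rests. A laminin molecule is a trimer of an alpha, a beta and a gamma chain, and the common type IV collagen trimer joins Col4a1 and Col4a2 chains.

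Col4a1 and Col4a2 lie head to head, and the stretch where they begin is shown because Col4a1 had reads in both libraries and Col4a2 in the control alone. In RefSeq (GRCm38.p6) the Col4a2 transcript starts at position 11312805 of chromosome 8 on the plus strand and the Col4a1 transcript at 11312826 on the minus strand. The stretch below is the plus strand of chr8:11312801-11312830. Capitals mark the 22 bases that belong to the transcripts of both genes.

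Col4a1 and Col4a2 starts: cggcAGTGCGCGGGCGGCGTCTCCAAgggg

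Reads over those 22 bases cannot be assigned to 1 of the genes, since the kit does not mark strand, and they are 0.29% of the annotated exon bases of Col4a1 and 0.33% of those of Col4a2 in GENCODE. The RefSeq gene records, which hold further transcripts, overlap by 85 bases. Genes on the opposite strand also cover 4.55% (Gm42802) and 1.66% (Gm42803) of the exon bases of Pdgfra, 1.43% of those of Gata6 and 0.65% of those of Col4a2. Promoter windows of 300 bases, 250 before the start and 50 after, were found for 6 of the genes (Pdgfra, Sparc, Col4a1, Col4a2, Lamb1 and Serpinh1). They were searched on both strands for CCAAT, for the GC box GGGCGG and for AGATAA, a sequence that GATA factors bind. AGATAA was in 0 of the 6 windows, against 11.2% of 32851 windows of the table. CCAAT was in the windows of Col4a1, Col4a2 and Lamb1 (37.4% of all windows) and GGGCGG in those and in Serpinh1 (35.7% of all windows). The Col4a1 and Col4a2 windows share 78 bases, so their matches are not independent. Parts of 3 windows, from their first base to the start used or the first exon in GENCODE, are printed for a gene that was higher in dsNat10 (Pdgfra), a gene near its control level (Lamb1) and a gene at 0 (Serpinh1). Capitals mark CCAAT and GGGCGG on either strand. The windows are chr5:75152001-75152250 (plus strand), chr12:31265043-31265233 (plus strand) and chr7:99353240-99353489 (minus strand). The RefSeq gene records of Pdgfra and Lamb1, which hold further transcripts, begin earlier, so the Pdgfra stretch lies inside its record and the Lamb1 stretch runs into its record, while the Serpinh1 stretch lies outside.

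Pdgfra: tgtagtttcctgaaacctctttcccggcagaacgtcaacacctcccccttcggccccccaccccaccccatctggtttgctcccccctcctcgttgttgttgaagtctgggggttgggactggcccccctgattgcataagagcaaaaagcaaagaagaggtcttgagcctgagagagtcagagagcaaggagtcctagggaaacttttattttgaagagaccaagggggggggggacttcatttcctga

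Lamb1: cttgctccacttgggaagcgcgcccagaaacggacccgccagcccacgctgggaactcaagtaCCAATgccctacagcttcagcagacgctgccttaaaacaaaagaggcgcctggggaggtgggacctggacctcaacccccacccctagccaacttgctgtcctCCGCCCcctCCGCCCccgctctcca

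Serpinh1: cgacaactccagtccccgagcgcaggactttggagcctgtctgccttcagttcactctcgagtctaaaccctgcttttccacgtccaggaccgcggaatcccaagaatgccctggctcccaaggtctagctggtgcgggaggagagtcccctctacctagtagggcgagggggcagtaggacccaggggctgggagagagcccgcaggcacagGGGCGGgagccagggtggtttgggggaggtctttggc

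The 8 genes did not move as a group. In dsNat10, Pdgfra and Sparc were higher, Lamc1 was higher by less, and Gata6, Col4a1 and Lamb1 were slightly lower. Col4a2 and Serpinh1 had no reads. Differences are given as ratios of CPM, reads per 1000000 reads scaled between the libraries, with the exact 95% interval of the counts, which covers counting error only. The log2 ratio adds 1 CPM to each value. Calls of higher or lower follow a size rule: a mean CPM over both libraries of at least 5, a log2 ratio at or beyond 1 in either direction and an interval that excluded equality. By that rule 2 of the 8 genes were called higher and 0 lower. Of the 8738 genes that reached this mean CPM, 30.5% were called, 15.2% as higher and 15.3% as lower, so the share among the 8 genes is read against a table in which such calls are common. Of the 8 genes, 6 passed the mean filter. Without that filter Col4a2 was also called lower, as were 25.3% of all genes, while 13.1% were called higher. The median log2 ratio of the 8 genes, with zeros set at a floor of 3 reads, was -0.31, and that of all 12836 genes was -0.13. Sparc (mean CPM 5.17) lay just inside the mean filter and Col4a2 (4.05) just outside it.

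**Figure D1:**
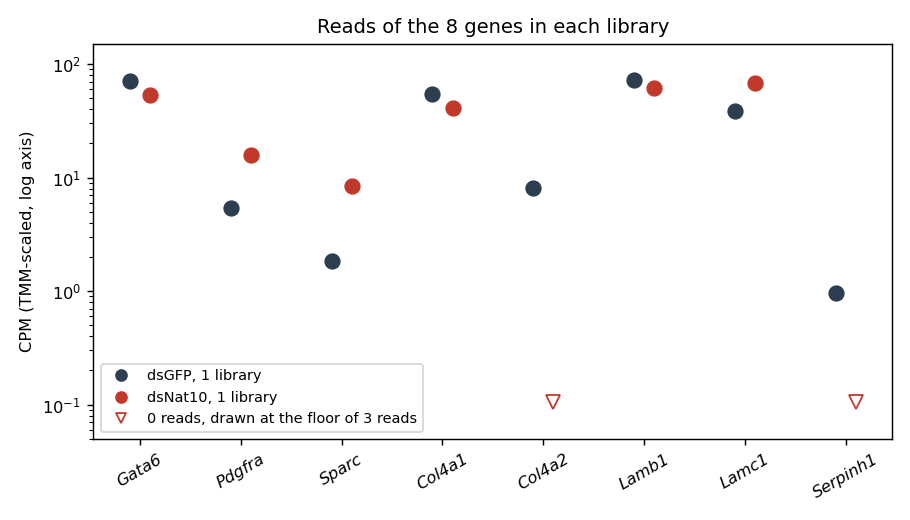
CPM on a log axis for the 8 genes, with 1 point per library (dsGFP dark, dsNat10 red). Open triangles are genes with 0 reads in dsNat10, drawn at the floor of 3 reads. Pdgfra, Sparc and Lamc1 are higher in dsNat10, and Col4a2 and Serpinh1 have no reads there.

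Gata6 (Entrez gene 14465) was the most abundant of the genes per length in both libraries. It had 1529 reads in dsNat10 and 2065 in dsGFP, or 53.5 and 71.5 CPM, a 1.34-fold lower value (1.25 to 1.43). In TPM, which divides by transcript length, it stood at 26.3 and 33.9, above 69.2% and 73.6% of the genes in the table. The difference is short of the size rule. Of 7 primitive endoderm markers looked for (Gata6, Sox17, Pdgfra, Gata4, Sox7, Foxa2 and Dab2), 3 had a row and the other 4, Sox17, Gata4, Sox7 and Foxa2, are not analysed here. Dab2, an endocytic adaptor, had 11870 reads in dsNat10 and 14497 in dsGFP, 1.21-fold lower (1.18 to 1.24). The 3 markers with a row therefore differed in direction, since Pdgfra was higher. The libraries are of morulae, a stage before the blastocyst in which the primitive endoderm separates. The values are therefore levels of transcripts and not a measure of that lineage. In pooled embryos, fewer cells with a transcript and less RNA per cell cannot be told apart.

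Pdgfra (Entrez gene 18595, chromosome 5, 75151322 to 75198206) encodes the receptor for PDGF-A and is an early marker of the primitive endoderm. Its reads numbered 455 in dsNat10 and 156 in dsGFP. At 15.9 and 5.40 CPM it was at a 2.95-fold higher level (2.45 to 3.56), with a log2 ratio of 1.40. Among genes with a mean CPM of 5 to 20, where both called genes lie, 26.9% were called higher and 27.8% lower. The length that the deposited FPKM implies for Pdgfra differed between the libraries, 5.06 kb in dsNat10 and 6.23 kb in dsGFP. For Col4a1 it was 6.43 kb in both, and for Lamc1 7.44 kb in both. Pdgfra has transcripts of several lengths, and reads per transcript are not analysed here. Its ligand gene Pdgfa had 1592 reads against 1278, 1.26-fold higher (1.17 to 1.36) and not called.

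Sparc (Entrez gene 20692, chromosome 11, 55394159 to 55420080) encodes a secreted glycoprotein that binds collagen IV and is abundant in parietal endoderm. It had 243 reads in dsNat10 and 53 in dsGFP, or 8.51 and 1.84 CPM, a 4.63-fold higher value (3.43 to 6.36) with a log2 ratio of 1.74. This was the highest ratio among the 8 genes, and it rests on few reads in the control. In TPM, Sparc was at 1.39 in dsGFP and at 6.70 in dsNat10, above 23.1% and 46.7% of genes in the respective library. With 5 CPM added in place of 1 its log2 ratio was 0.98, short of the size rule.

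Type IV collagen was uneven between its 2 chains. Col4a1 (Entrez gene 12826, chromosome 8, 11198423 to 11312889) was counted with 1164 reads in dsNat10 and 1571 in dsGFP, 1.34-fold lower (1.24 to 1.44). Col4a2 (Entrez gene 12827, chromosome 8, 11312805 to 11449287) was counted with 0 reads in dsNat10 and 234 in dsGFP and was at least 77.2-fold lower against the floor of 3 reads. Zeros of that kind were frequent in dsNat10. Of 1733 genes with 150 to 350 reads in dsGFP, 24.5% were at 0 in dsNat10, whereas of 1337 genes with as many reads in dsNat10, 7.78% were at 0 in dsGFP. The bound rests on counting error alone and leaves out that background of zeros.

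The Col4a1 level exceeded that of Col4a2 in the control as well. In dsGFP the TPM values were 12.0 and 1.83, a ratio of 6.55 (5.71 to 7.55). In dsNat10 the ratio per kilobase of the longest coding transcript was at least 378, with Col4a2 at its floor. Col4a3, Col4a4, Col4a5 and Col4a6, which encode the other type IV chains, had no row and are not analysed here.

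The proportion of Lamc1 to Lamb1 reads differed between the libraries, though neither gene was called. Lamb1 (Entrez gene 16777, chromosome 12, 31265146 to 31329644), the beta1 chain, had 1765 reads in dsNat10 and 2069 in dsGFP, 1.16-fold lower (1.09 to 1.24). Lamc1 (Entrez gene 226519, chromosome 1, 153218922 to 153332786), the gamma1 chain, had 1950 reads against 1123, 1.75-fold higher (1.63 to 1.89), with a log2 ratio of 0.80, under the size rule. Among genes with a mean CPM of 20 to 100, where Lamc1, Lamb1, Gata6 and Col4a1 lie, 13.1% were called higher and 12.3% lower. In TPM, Lamb1 exceeded Lamc1 by 2.50 times in dsGFP (2.32 to 2.69) and by 1.24 times in dsNat10 (1.16 to 1.32). The reads of Lamc1 per read of Lamb1 were thus 2.04 times as many in dsNat10 (1.84 to 2.25), a ratio that no scaling between libraries can move. That interval covers counting error only. How often other pairs of genes at this abundance shifted by as much was not tested.

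Other laminin alpha and beta chains, from a list of basement membrane genes, were higher in dsNat10. The alpha chain gene Lama4 had 347 reads in dsNat10 and 0 in dsGFP, at least 117-fold higher. Of 1337 genes with 150 to 350 reads in dsNat10, 7.78% were at 0 in dsGFP. Lamb2 had 814 reads against 250, 3.29-fold higher (2.85 to 3.81). The alpha chain Lama3 was 2.11-fold higher (1.88 to 2.36). Lama5 was 1.18-fold higher (1.08 to 1.29) and not called, and Lamc3 had 6 reads against 8, with fractional counts. Apart from Lama4, these genes were named after their values were seen. Summed over the genes with a row, alpha chains (Lama3, Lama4 and Lama5) reached 16.7 TPM in dsNat10 and 7.70 in dsGFP. Beta chains (Lamb1 and Lamb2) reached 24.5 and 20.8 TPM. Lamb1 made up 68.5% of the beta sum in dsNat10 and 89.1% in dsGFP.

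**Figure D2:**
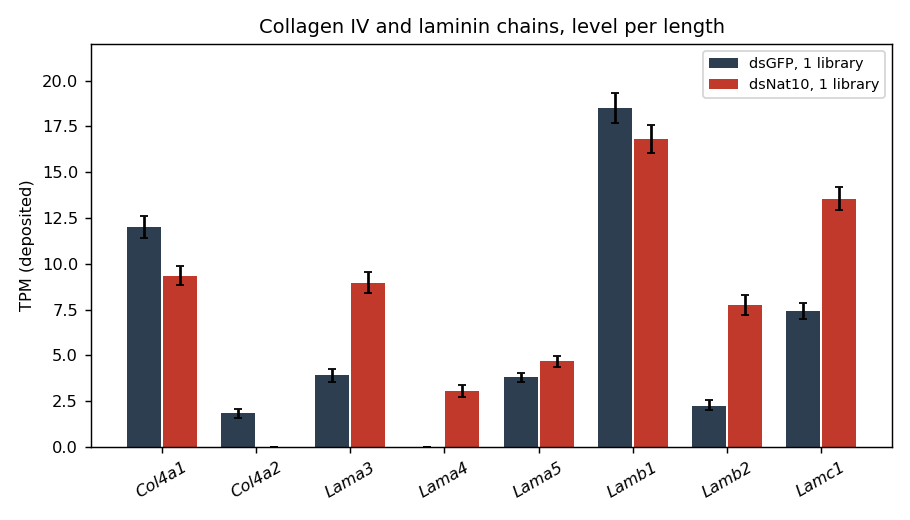
Deposited TPM of type IV collagen and laminin chain genes, with 1 bar per library (dsGFP dark, dsNat10 red) and error bars that are exact 95% counting intervals. Lamc1 is at 13.6 TPM in dsNat10 and 7.41 in dsGFP while Lamb1 is at 16.8 and 18.5. Col4a2 has no bar in dsNat10 and Lama4 none in dsGFP, because their reads were 0.

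Serpinh1 (Entrez gene 12406, chromosome 7, 99345375 to 99353239), also known as Hsp47, is the collagen chaperone of the endoplasmic reticulum. It had 0 reads in dsNat10 and 28 in dsGFP, which is 0.970 CPM, and was at least 9.24-fold lower. Of 551 genes with 20 to 40 reads in dsGFP, 60.3% were at 0 in dsNat10, and of 224 genes with as many reads in dsNat10, 12.5% were at 0 in dsGFP. At this depth the gene was near the limit of detection in the control, with 0.66 TPM (0.44 to 0.95).

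**Figure D3:**
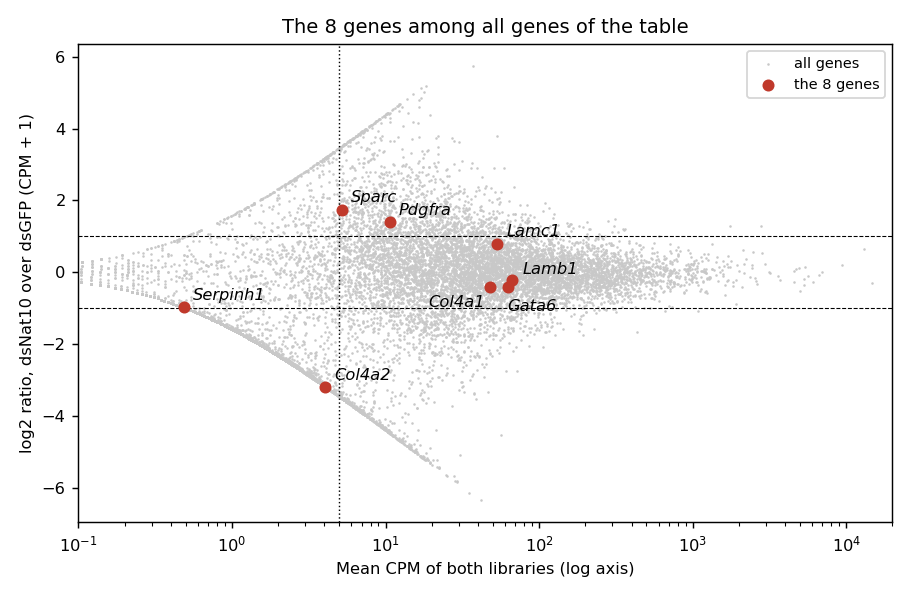
The log2 ratio of dsNat10 over dsGFP (1 CPM added) against the mean CPM of both libraries on a log axis, for genes within the drawn range (grey) and the 8 genes (red). Genes with the lowest mean CPM lie outside that range. Dashed lines mark log2 ratios of -1 and 1 and the dotted line a mean of 5 CPM. The lower curved edge is formed by genes at 0 in dsNat10, where Col4a2 and Serpinh1 lie, and the upper edge by genes at 0 in dsGFP.

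Levels per length were ordered alike at the top and differed further down. In dsGFP the order ran from Gata6 (33.9 TPM) through Lamb1 (18.5), Col4a1 (12.0) and Lamc1 (7.41) to Col4a2 (1.83), Sparc (1.39), Pdgfra (1.23) and Serpinh1 (0.66). Counting intervals of Sparc (1.04 to 1.82) overlapped those of Col4a2 (1.60 to 2.08) and of Pdgfra (1.04 to 1.44). In dsNat10, Gata6 (26.3 TPM) and Lamb1 (16.8) again came first. Lamc1 (13.6 TPM) stood above Col4a1 (9.35) there, followed by Sparc (6.70) and Pdgfra (4.65), and no neighbouring intervals of these 6 genes overlapped. Summed over the 8 genes, the level was 77.4 TPM in dsNat10 and 76.9 TPM in dsGFP.

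Other genes of the primitive endoderm differed in both directions. Of 20 listed genes 10 had a row, and 1 was called higher and 2 lower. The mean filter was passed by 7 of the 10, and among all genes that passed it 15.2% were called higher and 15.3% lower. Apoa1, an apolipoprotein, had 0 reads against 487 (at least 161-fold lower), and Plat, the tissue plasminogen activator, 0 against 300 (at least 99.0-fold lower). Lrp2, the megalin receptor that takes up nutrients in visceral endoderm, was the most abundant with 25804 reads against 15086, 1.73-fold higher (1.69 to 1.76). Its partners in that receptor differed, with Cubn, named after its values were seen, 1.45-fold higher (1.24 to 1.69) and Amn, named in the same way, at 0 reads against 234. The median log2 ratio was 0.07.

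In the wider list of basement membrane genes, 17 of 30 had a row, 4 were called higher and 3 lower, and the median log2 ratio was -0.63. The median of all 12836 genes was -0.13. Of the 17, 10 passed the mean filter, at which 15.2% of genes were called higher and 15.3% lower. Those called higher include the laminin chains Lama3, Lama4 and Lamb2. Fbln2, an extracellular matrix linker, had 0 reads against 825 (at least 272-fold lower). Tinagl1, a secreted matrix protein, was 7.10-fold lower (6.26 to 8.08), and Fn1, fibronectin, 9.66-fold lower (7.19 to 13.2). Without the mean filter 7 were called lower, as were 25.3% of all genes. Of the 17, 6 had 0 reads in dsNat10, as had 2657 of all 12836 genes. Nid1, which ties laminin to collagen IV, was the most abundant and 1.12-fold higher (1.06 to 1.18), but its counts are fractional and uncertain.

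Receptors for the matrix included 2 genes called higher and 3 lower of 20 with a row (22 listed, median -0.32). Of the 20, 17 passed the mean filter, at which 15.2% of genes were called higher and 15.3% lower. Itga6 and Itgb1 encode the chains of a laminin receptor, and Itgb1 was named after its values were seen. Itga6 had 881 reads against 333, 2.67-fold higher (2.35 to 3.04), and Itgb1 4007 against 1818, 2.23-fold higher (2.11 to 2.35). Dystroglycan, encoded by Dag1 and likewise named afterwards, binds laminin, and its gene was 2.01-fold higher (1.89 to 2.13) with a log2 ratio of 0.99. Itga3, another laminin receptor chain, had 0 reads against 634 (at least 209-fold lower). Itga5, the fibronectin receptor chain, had 1 read against 402, and Itgb5 was 2.43-fold lower (2.24 to 2.65). The abundant heparan sulphate proteoglycan Sdc4 was 1.07-fold higher (1.05 to 1.09).

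Among genes for collagen folding and export, 8 were called higher and 3 lower of 23 with a row (27 listed), with a median log2 ratio of 0.23. Of the 23, 20 passed the mean filter, and over all genes that did, 15.2% were called higher and 15.3% lower. Colgalt1, which adds galactose to hydroxylysine, had 1676 reads against 388, 4.36-fold higher (3.91 to 4.89). The lysyl hydroxylases Plod2, Plod1 and Plod3 were 4.21-fold (3.34 to 5.35), 2.19-fold (2.05 to 2.33) and, with fractional counts, 2.59-fold higher (2.34 to 2.87). P3h1 and Crtap, subunits of the prolyl 3-hydroxylase complex, were 6.06-fold (4.39 to 8.54) and 2.52-fold higher (2.36 to 2.70). The prolyl 4-hydroxylase subunits differed less, with P4ha1 1.18-fold higher (1.10 to 1.26), P4ha2 1.72-fold lower (1.60 to 1.84) and P4hb 1.37-fold lower (1.32 to 1.42).

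Genes of export from the endoplasmic reticulum went apart. Mia2, a cargo receptor, had 0 reads against 553 (at least 182-fold lower), and its relative Mia3, which loads procollagen, had 1708 against 1724, with fractional counts that are uncertain. Of the COPII vesicle coat, Sec24d had 0 reads against 465 (at least 153-fold lower) and Sec31a 3 against 1175, with fractional counts. Sec23a was 2.44-fold higher (2.34 to 2.55) and the abundant Sec13 1.08-fold lower (1.05 to 1.11). Kdelr3, a receptor that returns resident proteins to the endoplasmic reticulum, was 2.10-fold higher (1.93 to 2.28). In this list, genes other than Sec31a, Mia2, Sec24d, Colgalt1 and Sec13 were named after their values were seen.

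Genes of FGF, PDGF and ERK signalling had 17 of 23 members with a row above a log2 ratio of 0. Of all 12836 genes, 5384 were above 0, and among genes that passed the mean filter, as 21 of the 23 did, 4417 of 8738. The median was 0.42, and 3 were called higher and 1 lower of 25 listed. Among all genes that passed the filter, 15.2% were called higher and 15.3% lower. Mapk3, which encodes the kinase ERK1, had 308 reads against 0 (at least 104-fold higher). Spry4, a feedback inhibitor of the pathway, was 11.8-fold higher (8.36 to 17.0), and Braf, a kinase upstream of ERK, 4.24-fold higher (3.87 to 4.65). Etv5, a transcription factor downstream of ERK, was lower by a log2 ratio of -1.38, with 470 reads against 1279. Etv4, of the same list and named after its values were seen, had 283 reads against 0. Its mean CPM of 4.95 lay just outside the filter. Map2k2, the most abundant, had 7416 reads against 4674, 1.60-fold higher (1.54 to 1.66). The ligand Fgf4 (1.36-fold higher, 1.19 to 1.56) and the receptors Fgfr1 (1.89-fold higher, 1.65 to 2.18) and Fgfr2 (1.17-fold lower, 1.07 to 1.27), named after their values were seen, were not called.

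Of 19 genes for matrix turnover 10 had a row, with 1 called higher, 0 lower and a median of -0.10. The mean filter was passed by 6 of them, and among all genes that passed it 15.2% were called higher and 15.3% lower. Mmp9, a protease that cleaves type IV collagen, had 369 reads in dsNat10 and 0 in dsGFP (at least 124-fold higher). The abundant cathepsin Ctsb was 1.11-fold lower (1.08 to 1.15). Without the mean filter 2 genes were called lower, as were 25.3% of all genes.

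**Figure D4:**
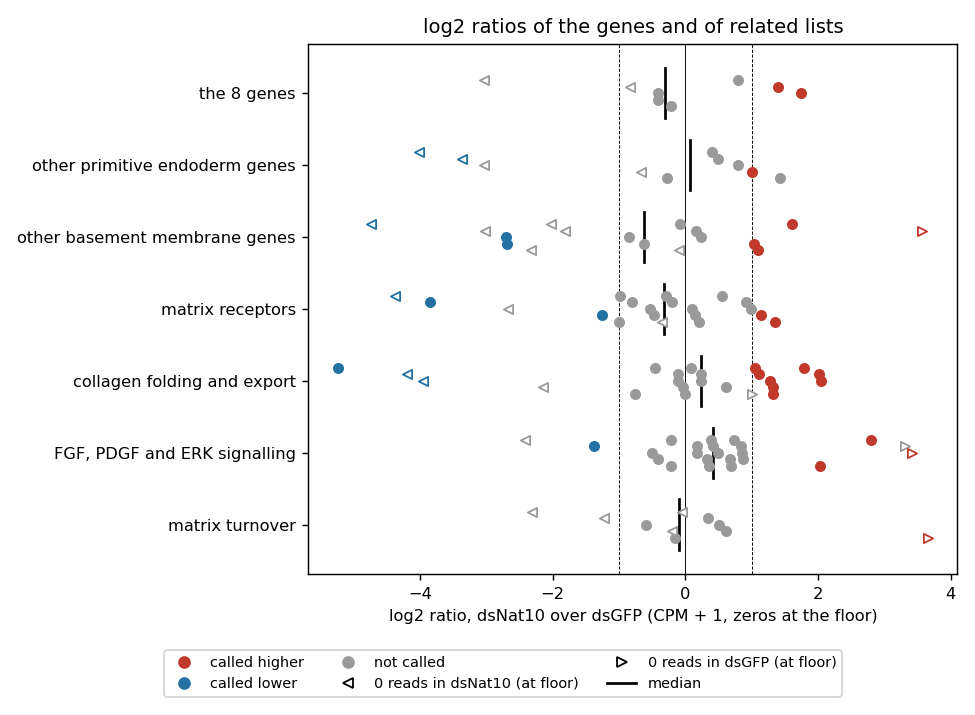
log2 ratios of dsNat10 over dsGFP (1 CPM added, zeros at the floor of 3 reads) for the 8 genes and the 6 related lists, with 1 point per gene with a row. Red and blue points were called higher and lower, open triangles had 0 reads in dsNat10 (pointing left) or dsGFP (pointing right), and bars are medians. The medians run from -0.63 for other basement membrane genes to 0.42 for FGF, PDGF and ERK signalling.

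Markers of other cells were looked for in 4 lists. Of 7 fibroblast and stroma markers, which include collagens of such cells, 2 had a row, Col1a1 (0 reads against 9) and Postn (0 against 22). The list summed to 0 CPM in dsNat10 and 1.07 CPM in dsGFP. Of 9 cumulus and granulosa markers 2 had a row, summing to 29.1 and 33.9 CPM, nearly all from Amhr2 (831 reads against 976). Endothelium and blood markers (7 of 10) summed to 92.2 and 74.2 CPM. Most of that came from Pecam1, the most abundant (1879 reads against 1036), and Cd68 (673 against 880). Cdh5, Tek and Hba-a2 were at 0 in dsNat10 with 3, 6 and, as a fractional count, 25 reads in dsGFP. Whether cells of these types were present was not tested. Oocyte markers (3 of 7) summed to 32.5 CPM in dsNat10 and 5.54 CPM in dsGFP, led by Zp3 (642 against 106), and H1f8 had 286 reads against 0 while Gdf9 had 1 against 54. The part of the oocyte markers in the higher values of Pdgfra, Sparc and Lamc1 was not tested. The morula and early lineage list (10 of 11 with a row) summed to 8153 CPM in dsNat10 and 8561 CPM in dsGFP, with Dppa3 the most abundant (147046 reads against 136586). In that list Nanog (with fractional counts), Cdx2, Krt8, Tead4 and Id2, named after their values were seen, were the 5 called lower, and 0 were called higher. All 10 passed the mean filter, at which 15.3% of genes were called lower. The list's median log2 ratio was -0.90, and that of all genes that passed was 0.01.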

How the data were processed

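Polyadenylated RNA of mouse morulae was made into SMART-seq2 libraries and sequenced with paired ends, 1 library per group, per the labels' protocols. Trim Galore, HISAT on GRCm38 and HTSeq trimmed, mapped and counted the reads, per the submitters' processing notes, with versions not given in the sources used here. HTSeq in its usual mode gives whole numbers, so the fractional counts do not match the named counter, and no source used here names another. As read from the table, the authors deposited estimated counts that are not normalized (23.2% of genes have a fractional count in at least 1 library and are marked in the text as fractional or uncertain), FPKM and TPM values. No row is at 0 in both libraries. Estimated counts were rounded and scaled to CPM with TMM factors (edgeR 4.0.16, R 4.3.3), which moved log2 ratios by -0.03 against plain totals. Ratios have Clopper-Pearson 95% intervals, and the fold of a gene at 0 is bounded by a floor of 3 counts per library (0.105 CPM in dsNat10, 0.104 CPM in dsGFP). Each such bound leaves out how common zeros were. Of 12836 genes, 2657 were at 0 in dsNat10 and 458 in dsGFP. Without molecular identifiers, PCR reads are not independent molecules, so intervals and floors cover counting error only. No p-value was computed.

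The 10 genes and the lists (6 of related genes, 5 of markers) were chosen with earlier results of these data known. From each of the 6 lists, the text names up to 4 called genes with the largest log2 ratio in size and the most abundant gene, and from each marker list the most abundant gene. Others are marked as named after their values were seen, and further marker genes are given as values. Items that these rules name but that are not reported here count in the list totals. Entrez identifiers gave coordinates for 12800 of 12836 genes in RefSeq GRCm38.p6, from which promoter sequences also came. Exons and the longest coding transcripts came from GENCODE. The rule and intervals were tested on simulated Poisson counts. Such counts hold counting error only and lack the frequent zeros of dsNat10, so they cannot show how the calls hold in these data. Alternatives were plain totals, DESeq2 1.42.0 size factors, other mean filters and pseudocounts, TPM, FPKM and leaving out fractional genes.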

Additional observations from a re-analysis of the deposited data

How the results depend on the processing

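No paired analysis was possible because each group has 1 library, and for the same reason no replicate could be left out. The median log2 ratio of the 8 genes stayed below 0 under all 9 alternatives (-0.32 to -0.21). Of these, leaving out fractional genes and dropping the mean filter could not change it. No gene of the 8 has a fractional count, and the median covers all 8. The level ratios of Lamb1 to Lamc1 and of Col4a1 to Col4a2 could differ in FPKM by rounding only. Within 1 library TPM and FPKM differ by a constant. Per kilobase of the longest coding transcript the ratios stayed within their counting intervals. That version uses the same reads with similar lengths, so it is not a separate check. Plain totals, DESeq2 size factors and a pseudocount of 0.5 CPM moved no count over the 8 genes. Leaving out fractional genes could move none of these counts. Members called higher went from 2 to 0 with a mean CPM of 20 or more, in TPM and in FPKM, where Pdgfra and Sparc fall under the mean filter, and to 1 with a pseudocount of 5 CPM. Members called lower went from 0 to 1 without the filter. Members with a ratio above 0 went from 3 to 1 at a mean CPM of 20 or more, where 4 members remain.

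Among other primitive endoderm genes, the count called higher went from 1 to 0 with DESeq2 size factors, a mean CPM of 20 or more, a pseudocount of 5 CPM, TPM or FPKM, and to 2 without the filter. The count called lower went from 2 to 0 at a mean CPM of 20 or more and to 1 in TPM and FPKM. For other basement membrane genes, the 4 called higher became 1 at a mean CPM of 20 or more, 2 with a pseudocount of 5 CPM and in TPM, and 0 in FPKM. The 3 called lower became 1 at a mean CPM of 20 or more, in TPM and in FPKM, and 7 without the filter. For matrix receptors, the 2 called higher became 1 in FPKM, and the 3 called lower became 1 at a mean CPM of 20 or more, in TPM and in FPKM, and 5 without the filter. In collagen folding and export, the 3 called lower became 1 at a mean CPM of 20 or more, in TPM and in FPKM. In FGF, PDGF and ERK signalling, the 3 called higher became 1 at a mean CPM of 20 or more and in FPKM. That count became 2 in TPM and 4 without the filter, where the 1 called lower became 2. In matrix turnover, the 1 called higher became 0 at a mean CPM of 20 or more, in TPM and in FPKM, and the 0 called lower became 2 without the filter. The stricter filter tests fewer genes, and the mean filter of 5 acts on other values in TPM and FPKM. Of the 8 genes, Serpinh1 had the fewest reads in dsGFP, 28, and the bound on its fold is limited by that depth.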
